A study of Mus musculus with 6 samples.

Results

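The genes described here encode the proteins of the cytosolic ribosome and their close copies, measured by RNA-seq in mouse testis. They were chosen by name: every symbol that begins with Rpl or Rps and a number, or is of the form Rplp0 or Rpsa, was taken, and rows whose symbol marks a processed pseudogene (-ps) and the ribosomal S6 kinases were left out. The rule found 94 of the 38715 genes in the table. Of these, 77 are common ribosomal protein genes, 46 of the large and 31 of the small subunit, and 13 are like-paralogs, genes named after a common gene with an added l, l1, al or rt. A further 2 are numbered copies (Rps3a2 and Rps3a3), and 2 match the pattern without encoding a subunit of the ribosome (Rps19bp1 and Rps23rg1). RefSeq lists Rps3a2, Rps3a3 and the like-paralogs Rpl6l and Rps12l1 as pseudogenes, and Rps4l as a transcribed pseudogene. Fau and Rack1, which encode ribosomal proteins under other names, are outside the rule and are given beside it.

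The study had 6 libraries of whole testis, 3 titled Middle and 3 titled Control. The design text speaks of MES-exposed mice and of controls, and Middle is taken here for the exposed mice, since the titles name nothing else. What MES stands for, its dose, the strain, the age and the number of animals are not stated in the labels. The p-values therefore reflect the spread among these libraries, which may be technical. Levels are RPKM, reads scaled to gene length and library size. The libraries held 46649138 to 56435498 reads in Middle and 38820385 to 58389391 in Control. The marker genes listed for spermatocytes, spermatids and peritubular cells all averaged at least 1 RPKM, as did 7 of 8 for Sertoli cells and 7 of 8 for Leydig cells. Smaller shares did so for spermatogonia (4 of 8), macrophages (4 of 5) and red cells (3 of 5).

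Ribosomal proteins are made in nearly equal numbers, since each ribosome holds 1 copy of most of them, and their messages are among the most abundant of any cell. Those messages begin with a pyrimidine tract at the cap, through which mTOR and Larp1 control their translation. The testis is unusual because chromosome X is silenced in meiosis, and some ribosomal proteins are encoded there. Retrocopies of such genes on autosomes are expressed in male germ cells in their place: Rpl10l, a copy of Rpl10, is required for male meiosis in the mouse, and Rpl39l replaces Rpl39 at the exit tunnel of a ribosome found in developing sperm.

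The stretches near the annotated starts of 3 like-paralogs and their X-linked parents are shown for the letters of a pyrimidine tract core. They are RefSeq sequences on build GRCm38.p6, read 5′ to 3′ on the strand of the gene, with the tract core CTTTC or CTTTT in capitals. Positions are counted from 1 at the annotated start.
Rpl10l: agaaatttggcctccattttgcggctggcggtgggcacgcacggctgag
Rpl10: gagcaggcgtgggagcgtctCTTTTcc
Rpl39l: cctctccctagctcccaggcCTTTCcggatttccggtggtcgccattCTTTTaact
Rpl39: cgcgttcttccggtcccggcCTTTCtctt
Rpl36al: gacttccgctctgttcgtccCTTTCctgt
Rpl36a: gttgcggctctagcctctctCTTTCcgag

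The Rpl10l stretch is chr12:66284373-66284421 (minus strand, positions -20 to 29), and it holds no core. The stretch of its parent Rpl10, chrX:74270839-74270865 (plus strand), has the core at position 44. Rpl39l (chr16:10170202-10170257, plus strand) has cores at -6 and 22, and Rpl39 (chrX:37085177-37085205, minus strand) has its core at 38. Rpl36al (chr12:69184028-69184056, minus strand) and Rpl36a (chrX:134585668-134585696, plus strand) have theirs at 32 and 35.

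A window of 40 bases before to 50 bases after the start was at hand for 69 members. On the gene's strand the core was in 36 of 57 common genes (63.2%) and in 3 of 10 like-paralogs (30%), against 19.3% of the 27025 genes with a window. On either strand these shares were 75.4%, 60% and 34.9%. The motif CCGGAAG, a sequence that ETS factors bind, neither contains the tract core nor lies in it, and it was in 12 of 57 common genes (21.1%), 1 of 10 like-paralogs and 4.99% of all genes on either strand. None of the cores printed begins at the annotated start itself. A match describes the letters of the window and does not show a tract at the cap.

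Levels of the common genes spanned a wide range. The highest was Rpl23a, a protein at the exit of the tunnel through which the new chain leaves, at 586, 483 and 521 RPKM in Middle replicates 1 to 3, against 426, 455 and 449 in Control replicates 1 to 3 (chromosome 11, 78071758 to 78074410, GRCm39). Its exons share 62.3% of their bases with Tlcd1 and Snord42b, counted on either strand. Reads in these bases may not be told apart, since the labels state neither strandedness nor the counting program. In all, 11 common genes share over 20% of their exon bases with other genes. The next were Rpl36 at 478 ± 51.7 RPKM in Middle and 430.3 ± 11.99 in Control, and Rps15, a small-subunit protein near the decoding site, at 496 ± 95.8 and 376 ± 4.59 (SD, n = 3 each). Rpl19, which bridges the subunits, followed at 384 ± 74.1 RPKM in Middle and 310.1 ± 13.1 in Control, and Rpl26, near the tunnel exit, at 320.5 ± 49.1 and 268 ± 7.13 (SD, n = 3 each). The median common gene was at 75.8 RPKM in Middle and 63.0 in Control. The 73 autosomal common genes had medians of 85.1 and 69.2 RPKM in the same order of groups.

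The 4 X-linked common genes stood at the low end. Their median was 12.2 RPKM in Middle and 9.73 in Control, and their levels reached from 3.46 to 19.95 RPKM in Middle and from 2.63 to 15.4 in Control. Among 90 common genes and like-paralogs ordered by mean level over all libraries, Rps4x was number 75, Rpl36a 80, Rpl10 82 and Rpl39 86. None of the 13 like-paralogs lies on chromosome X. In this ranking the copies of these 4 genes stood higher, with Rpl10l at number 20, Rpl39l at 28, Rpl36al at 39 and Rps4l at 45. The order depends on the gene length used: with the length of a single transcript in place of the authors' merged exons, Rpl10l was number 42, Rpl39l 52, Rps4l 64 and Rpl36al 65. The parents were then number 76 (Rpl36a), 78 (Rps4x), 80 (Rpl10) and 84 (Rpl39). Levels in whole testis do not tell which cells hold a transcript, and fewer cells of a type cannot be told apart from less RNA per cell.

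**Figure D1:**
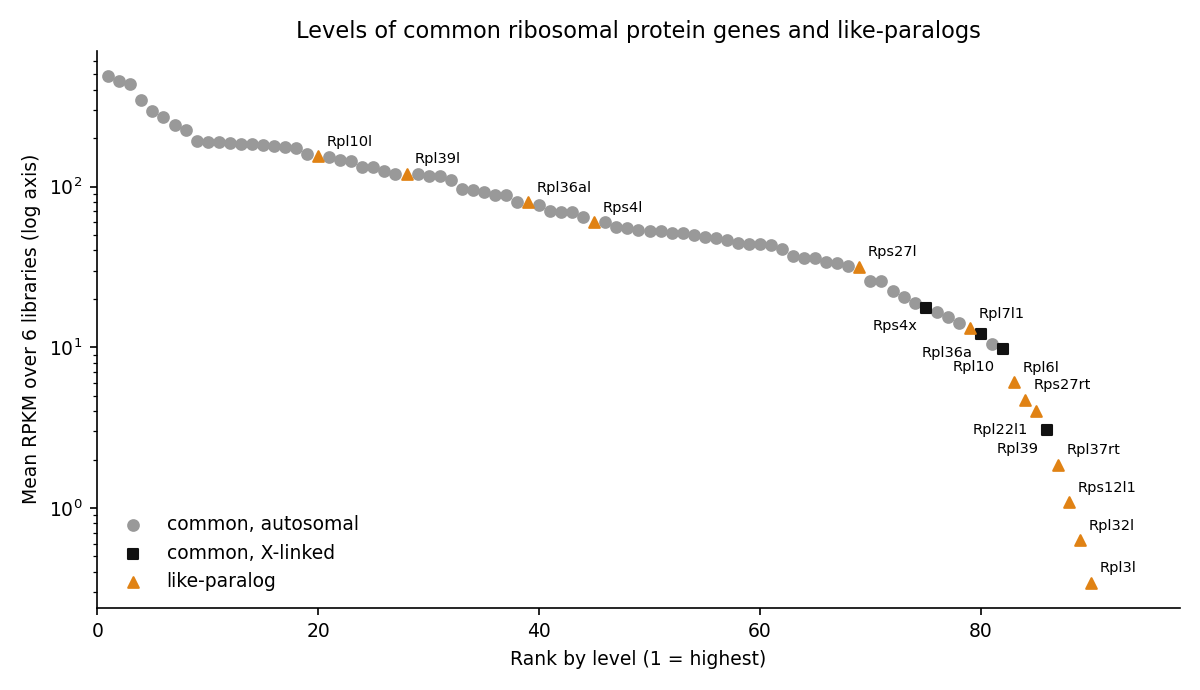
Mean level over 6 libraries (RPKM, log axis) of 77 common ribosomal protein genes and 13 like-paralogs, from the highest to the lowest. Rpl10l, Rpl39l, Rpl36al and Rps4l lie among the autosomal common genes, and the 4 X-linked common genes lie between number 75 and number 86.

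Rpl10l (chromosome 12, 66330153 to 66331175) was at 177, 150 and 154 RPKM in Middle replicates 1 to 3 and at 143, 153 and 149 in Control. Its parent Rpl10 (chromosome X, 73314418 to 73316741) was at 13.23, 10.003 and 9.27 RPKM in Middle and at 7.95, 8.36 and 10.1 in Control. In each library the copy was therefore more abundant than the X-linked gene, and for both genes Middle replicate 1 was the highest library while the groups overlapped. The ratio of Rpl10l to Rpl10 was 14.8 in Middle and 16.9 in Control.

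Rpl39l (chromosome 16, 9988090 to 9992775) was at 154, 108 and 135 RPKM in Middle and at 101, 114 and 109 in Control. Rpl39 (chromosome X, 36346173 to 36349055) was at 3.89, 3.38 and 3.11 RPKM in Middle and at 2.45, 2.68 and 2.75 in Control. The Rpl39l libraries of the groups overlapped, while all 3 Middle libraries lay above all 3 Control libraries for Rpl39. Rpl39l stood at 38.2 times Rpl39 in Middle and 41.1 times in Control.

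Rpl36al (chromosome 12, 69229505 to 69230857), a retrocopy without introns, was at 96.0, 77.0 and 83.5 RPKM in Middle and at 74.0, 74.7 and 74.0 in Control. Its parent Rpl36a (chromosome X, 133486403 to 133488811) was at 15.2, 12.1 and 13.1 RPKM in Middle and at 9.43, 10.8 and 11.8 in Control. Both genes had every Middle library above every Control library, and their ratio was 6.34 in Middle and 6.96 in Control. Rpl36al shares 24.5% of its exon bases with Gm49383.

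Rps4l (chromosome 6, 148256098 to 148257431), which RefSeq lists as a transcribed pseudogene, was at 79.6, 55.5 and 64.0 RPKM in Middle and at 48.0, 56.4 and 56.0 in Control. Rps4x (chromosome X, 101228547 to 101233000) was at 24.63, 17.99 and 17.23 RPKM in Middle and at 14.4, 14.7 and 17.0 in Control. The groups overlapped for Rps4l and not for Rps4x. The copy was at 3.32 times its parent in Middle and 3.48 times in Control.

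These ratios depend on the gene length used. The authors' lengths merge all annotated exons, retained introns included, and are longer than the mature transcript for the parents (2053 against 855 bases for Rpl10, but 1023 against 1023 for Rpl10l). With lengths of a single transcript the ratios were 6.16 in Middle and 7.02 in Control for Rpl10l, 16.8 and 18.1 for Rpl39l, 1.96 and 2.16 for Rpl36al, and 2.81 and 2.95 for Rps4l. All 4 copies stayed above their parents on this scale. Aligned transcripts of these pairs were 79.7% to 87.7% identical, with no identical run longer than 38 bases.

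**Figure D2:**
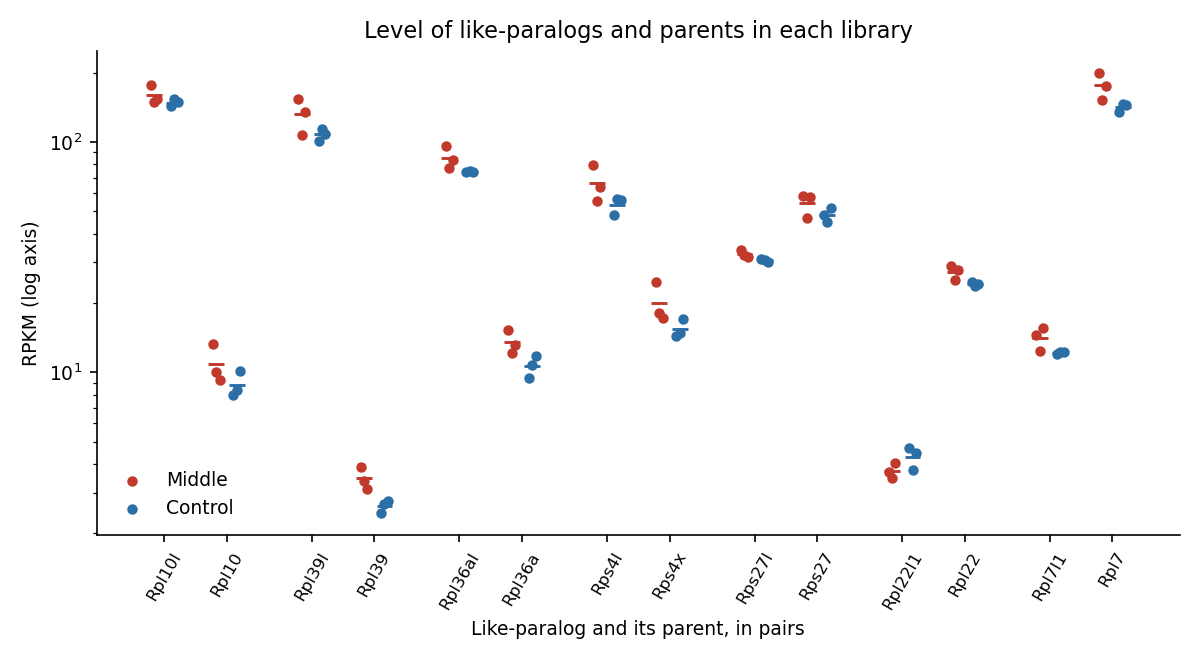
Level in each library (RPKM, log axis) of 7 like-paralogs and the common gene each is named after, with Middle in red left of Control in blue and the group mean as a short line. The autosomal copies of the 4 X-linked genes lie above their parents in all libraries, while Rps27l, Rpl22l1 and Rpl7l1 lie below theirs.

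Copies of autosomal genes had lower levels than their parents. Rps27l, a target of p53, was at 33.9, 32.4 and 31.5 RPKM in Middle and at 31.1, 30.6 and 30.1 in Control, a ratio to Rps27 of 0.601 in Middle and 0.634 in Control. Rpl7l1 was at 14.5, 12.3 and 15.5 RPKM in Middle and at 11.98, 12.25 and 12.2 in Control, or 0.0802 and 0.0856 times Rpl7. For both copies each Middle library lay above each Control library. Rpl22l1, whose message is held down by the Rpl22 protein in mouse cells, was at 3.69, 3.47 and 4.04 RPKM in Middle and at 4.70, 3.75 and 4.46 in Control. Rpl3l, the copy of heart and skeletal muscle, averaged 0.408 ± 0.0575 RPKM in Middle and 0.278 ± 0.149 in Control (SD, n = 3 each).

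The common genes lay higher in Middle than in Control as a group, but no single member passed the test. At an adjusted p under 0.05 (limma on log2(RPKM + 1)), 0 of the 91 members tested were called, where the same fit called 8 of 15040 genes (0.0532%). The smallest adjusted p of a member was 0.178 (limma). Limma-voom on the recovered reads also called 0 members and 10 of 23889 genes (0.0419%). At an unadjusted p under 0.05, 48 of the 77 common genes were higher in Middle, against 11.7% of all genes.

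All 77 common genes had a log2 fold change above 0, against 55.9% of genes tested. Their median was 0.25 and their range 0.0021 to 0.59, beside a median of 0.027 over all genes. For 54 of the 77 every Middle library lay above every Control library, against 17.9% of all genes. The 46 large-subunit genes had a median of 0.25 and 34 without overlap, and the 31 small-subunit genes a median of 0.25 and 20 without overlap. The 4 X-linked genes had a median of 0.30 and 3 without overlap.

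The common genes stood highest in Middle replicate 1. The common genes summed to 10344, 8104 and 8713 RPKM in Middle replicates 1 to 3 and to 7337, 7609 and 7833 in Control. Middle replicate 1 was the highest of all libraries for 72 of the 77 genes and Middle replicate 3 for the other 5, while Middle replicate 2 was the lowest of its group for 73. The median deviation of the common genes from their Control mean was 0.43, 0.094 and 0.19 (log2) in Middle replicates 1 to 3. In the same order 76, 54 and 70 of the 77 lay above every Control library, against 42.8%, 35.1% and 39.8% of all genes tested.

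Without Middle replicate 1 the shift was smaller and kept its direction. The median log2 fold change of the common genes was then 0.15, beside 0.027 over all genes, and 75 of 77 were above 0, against 57.7% of all genes. The same 54 genes had no overlap, where 22.7% of all genes then had none with Middle higher. That count could not fall, since leaving out a library cannot create an overlap. It could not rise either, since Middle replicate 1 was the lowest of its group for 0 of the 77. The count therefore says nothing further of the shift. At an unadjusted p under 0.05, 33 common genes were higher, against 8.52% of all genes, and 0 members were called, where that fit called 1 of 15065 genes (0.00664%).

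**Figure D3:**
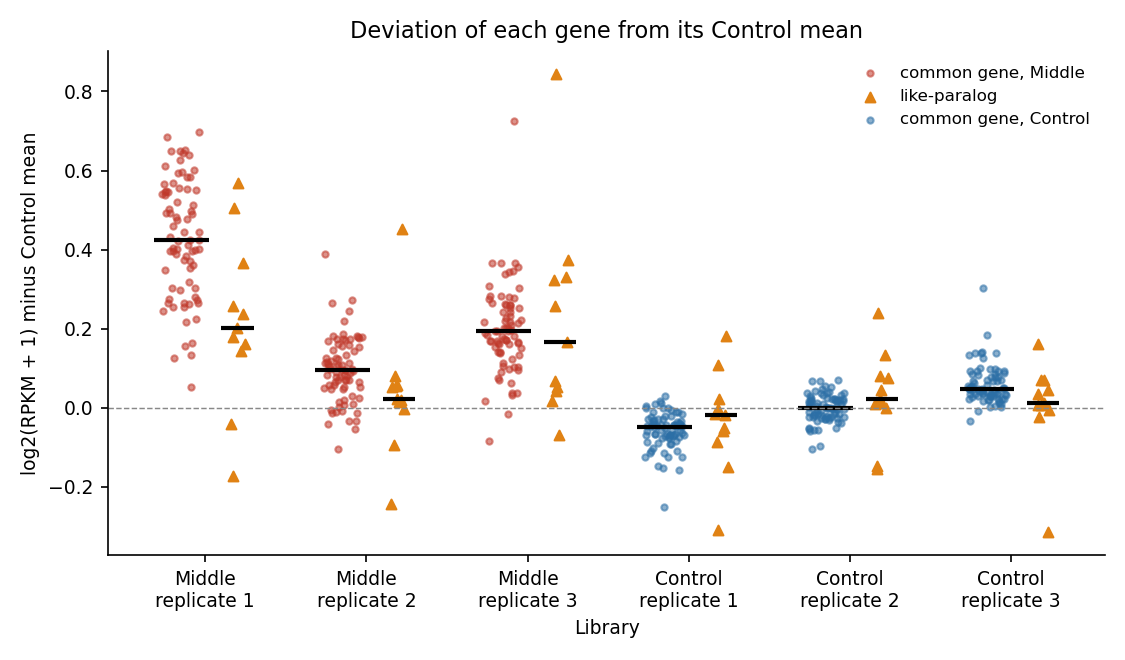
Deviation of each common ribosomal protein gene (circles, red in Middle and blue in Control) and of each of 11 tested like-paralogs (orange triangles) from its Control mean, on the log2(RPKM + 1) scale, by library, with medians as black lines. The common genes' medians are 0.43, 0.094 and 0.19 in Middle replicates 1 to 3 and -0.049, 0.00015 and 0.048 in Control replicates 1 to 3.

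Other measures moved with the groups too, and their part in the shift was not tested. The trend of gene levels on the GC content of the transcript (Spearman's rho over 14003 genes, each library against the mean of all) was 0.47, 0.026 and -0.068 in Middle replicates 1 to 3 and -0.31, -0.22 and -0.26 in Control. With this trend removed from each library, a step added after seeing the data, the common genes' median was 0.20, beside 0.0052 over all genes, and 74 of 77 were above 0, against 51.3% of all genes. Removal of the trend without Middle replicate 1 left a median of 0.11 and 69 of 77 above 0, against 51.5% of all genes. The 25 common genes lowest in GC (41.3% to 49.2%) had a median of 0.24 and the 25 highest (54.0% to 60.8%) one of 0.28, where the other genes of those GC ranges had medians of -0.020 and 0.096. Across the 77 genes the fold change and GC had a Spearman's rho of 0.19, as a description of points that share their libraries. This rho was -0.016 without Middle replicate 1 and -0.23 with the trend removed. Over all genes it was 0.36 with all libraries, 0.21 without Middle replicate 1 and 0.0019 with the trend removed.

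Mitochondrially encoded genes held 1.18% to 1.58% of reads in Middle and 0.841% to 1.04% in Control. Of 11 marker lists, the 8 round spermatid genes summed to 332 to 338 RPKM in Middle and 359 to 385 in Control. The 8 Sertoli genes summed to 206 to 219 RPKM in Middle and 191 to 197 in Control, and the 6 peritubular myoid genes to 59.6 to 76.9 and 51.7 to 58.2. The sums of the other 8 lists overlapped between the groups. Among all single genes tested, 17.9% had no overlap with Middle higher and 11.4% had none with Middle lower. No listed gene was at 0 in every library, though 3 of 5 epididymis genes were in the table. The part of the mitochondrial share or of any marker list in the ribosomal protein values was not tested.

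Rpl10a, Rpl14, Rps15 and Rps14 were among the common genes with the largest log2 fold changes. Rpl10a, the protein of the L1 stalk beside the exit site of the ribosome, was at 19.31, 15.95 and 20.41 RPKM in Middle and at 9.88, 11.48 and 14.98 in Control (chromosome 17, 28547445 to 28550007). Its groups did not overlap, though Control replicate 3 came close to Middle replicate 2. The log2 fold change was 0.59 (SE 0.15, adjusted p = 0.178, limma), and it was 0.56 without Middle replicate 1.

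Rpl14, a large-subunit protein, was at 247, 186 and 203 RPKM in Middle and at 145, 159 and 167 in Control (chromosome 9, 120400510 to 120403720). The groups did not overlap. The log2 fold change was 0.42 (SE 0.11, adjusted p = 0.178, limma), and 0.31 without Middle replicate 1. Rps15 stood at a ratio of means of 1.32 and Rps14 at 1.31, and without Middle replicate 1 their log2 fold changes were 0.23 and 0.24, against 0.38 and 0.37 with it. Rps14 alone of these 4 had overlapping groups.

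Ratios of mean RPKM over the 77 common genes ran from 1.003 to 1.53. The stalk proteins Rplp0, Rplp1 and Rplp2, which recruit elongation factors, had ratios of means of 1.20, 1.25 and 1.20, each without overlap. Rpl5 and Rpl11, which travel with the smallest ribosomal RNA and bind Mdm2 when assembly fails, had ratios of 1.19 and 1.14, and the groups overlapped for Rpl11. Rps2 and Rps3, which line the entry of the message channel, both had a ratio of 1.26 and no overlap. Rps6, the substrate of the S6 kinases, was at 203 ± 21.9 RPKM in Middle and 173 ± 4.79 in Control (SD, n = 3 each), without overlap. None of these genes passed the test.

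The 5 smallest log2 fold changes among the common genes belonged to Rpl30, Rps25, Rps24, Rpl38 and Rps29, and the groups overlapped for each. Rpl30 was at 36.3, 30.8 and 32.8 RPKM in Middle and at 31.96, 32.77 and 34.78 in Control, so that Middle replicate 1 was the highest library and Middle replicate 2 the lowest. Its log2 fold change was 0.0021 and became -0.06 without Middle replicate 1. Rps25, which some viral messages need for initiation, was at 56.1 ± 4.38 RPKM in Middle and 55.3 ± 0.946 in Control, and Rpl38, which the mouse embryo needs to translate Hox messages, at 197 ± 22.03 and 185 ± 9.84 (SD, n = 3 each). Of all 77 genes, 20 had a log2 fold change of at least 0.3, 51 lay between 0.1 and 0.3, and 6 were under 0.1.

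Outside the naming rule, Rack1, a scaffold on the small subunit, was at 14.8, 10.5 and 11.2 RPKM in Middle and at 7.45, 8.83 and 9.50 in Control, with a log2 fold change of 0.45 (SE 0.13, adjusted p = 0.178, limma) and 0.31 without Middle replicate 1. Fau, which encodes a small-subunit protein fused to a ubiquitin-like one, was at 313 ± 46.5 RPKM in Middle and 265 ± 10.1 in Control (SD, n = 3 each). Its lowest Middle library, at 276.7 RPKM, was just above its highest Control library, at 276.5, and Rack1 had no overlap either.

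**Figure D4:**
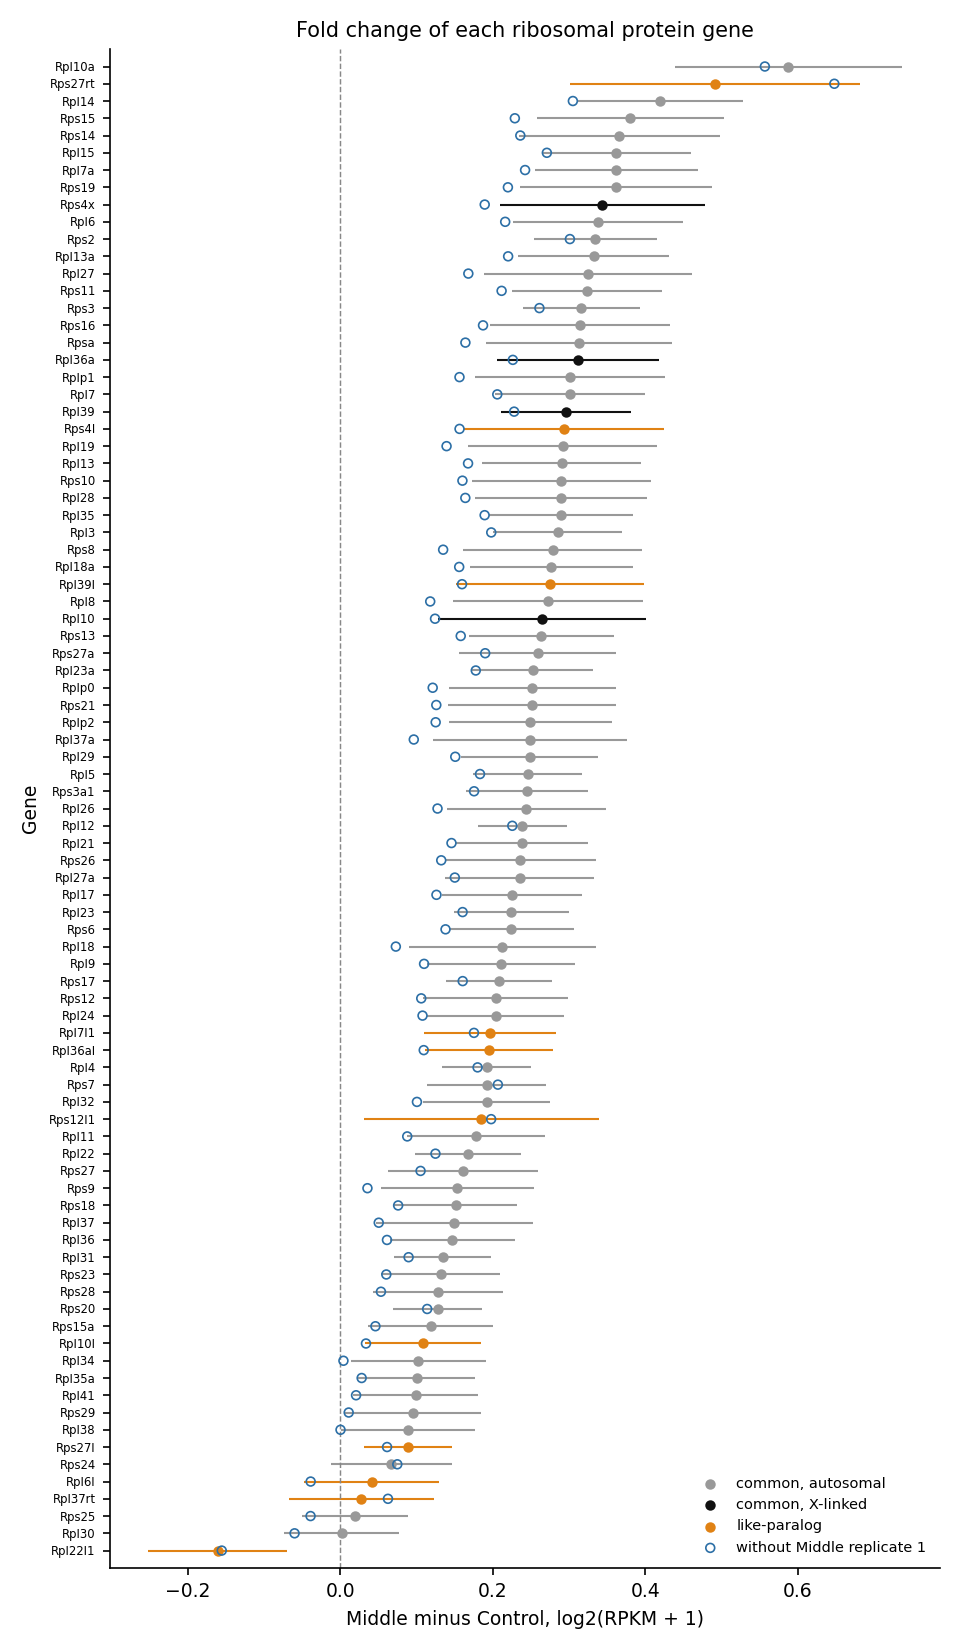
Middle minus Control on the log2(RPKM + 1) scale for 76 of the common genes and 11 tested like-paralogs, with bars of 1 standard error and open circles for the values without Middle replicate 1. All common genes drawn lie above 0 and the open circles of 2 of them, Rpl30 and Rps25, lie below it; Rpl22l1 is the lowest.

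The like-paralogs had no call. Of the 13, 11 were tested and Rpl3l and Rpl32l were below the filter. The log2 fold change was above 0 for 10 of the 11, against 55.9% of all genes, with a median of 0.19. The groups had no overlap for 3 of the 11 (Rpl36al, Rps27l and Rpl7l1), against 17.9% of all genes with Middle higher. Without Middle replicate 1 the median was 0.11, 9 were above 0 and 4 had no overlap, against 57.7% and 22.7% of all genes. Rpl39l had a log2 fold change of 0.28 (SE 0.12, adjusted p = 0.253, limma) and Rpl10l of 0.11 (SE 0.08, adjusted p = 0.421, limma). Without Middle replicate 1 these were 0.16 and 0.03. Rpl22l1 was the single tested member with a value below 0, at -0.16 (SE 0.09, adjusted p = 0.332, limma).

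The like-paralogs held a small share of the summed RPKM of common genes and like-paralogs together. It was 5.25%, 5.30% and 5.48% in Middle replicates 1 to 3 and 5.50%, 5.68% and 5.40% in Control, so the groups overlapped. In RPKM the paralogs summed to 573, 453 and 506 in Middle and to 427, 459 and 447 in Control.

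The paralog-to-parent ratio sets each copy against its own parent in the same library. It was taken on the log2(RPKM + 1) scale, where a shift shared by both genes does not cancel if the copy or the parent is at a few RPKM or less. It was tested for 13 of 15 pairs by an exact permutation test, two-sided, in which 3 libraries against 3 cannot go below 0.1, so no pair could pass 0.05. Of the 11 like-paralog pairs, 10 had a lower mean log2 ratio in Middle, and 8 did without Middle replicate 1. With a pseudocount of 0.1 or 0.01 it was 9, since Rps12l1 to Rps12, at -0.019, became 0.15 and 0.18. The groups overlapped for all but 2 of the 13 pairs. A pair without overlap has p = 0.1 by the exact permutation test, the share of label arrangements that separate the libraries as far. No share over other gene pairs was taken, so these counts have no background beside them.

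The first of those 2 was Rpl22l1 to Rpl22. Its log2 ratio was -2.68, -2.55 and -2.52 in Middle replicates 1 to 3 and -2.17, -2.37 and -2.21 in Control. The copy averaged 3.74 ± 0.289 RPKM in Middle and 4.30 ± 0.492 in Control, and Rpl22, a large-subunit protein that T cells need to develop, averaged 27.3 ± 1.997 and 24.2 ± 0.520 (SD, n = 3 each). The difference of the log2 ratios was -0.33 (exact permutation p = 0.1, adjusted over the 13 pairs 0.65), and it was -0.28 without Middle replicate 1 (exact permutation p = 0.2).

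The second was Rpl6l to Rpl6, with log2 ratios of -4.29, -4.15 and -4.16 in Middle and -3.86, -3.91 and -3.95 in Control. The difference was -0.30 (exact permutation p = 0.1, adjusted over the 13 pairs 0.65) and -0.26 without Middle replicate 1 (exact permutation p = 0.1). Rpl6l was at 6.15 ± 0.746 RPKM in Middle and 5.93 ± 0.242 in Control, and Rpl6 at 131 ± 20.7 and 103 ± 6.56 (SD, n = 3 each). Their aligned transcripts are 98.7% identical and RefSeq lists Rpl6l as a pseudogene, so the split of reads between them is uncertain.

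For the X-linked pairs the groups overlapped. The difference of the log2 ratios was -0.16 for Rpl10l to Rpl10 (exact permutation p = 0.3), -0.12 for Rpl36al to Rpl36a (0.4), -0.05 for Rps4l to Rps4x (0.5) and -0.021 for Rpl39l to Rpl39 (1). The last of these depends on the pseudocount, since Rpl39 is low. With 0.01 added in place of 1, the log2 fold change of Rpl39 was 0.39 and not 0.30, beside 0.28 for Rpl39l on both scales. Rps27l to Rps27 and Rpl7l1 to Rpl7 differed by -0.073 and -0.11, with exact permutation p-values of 0.7 and 0.3.

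**Figure D5:**
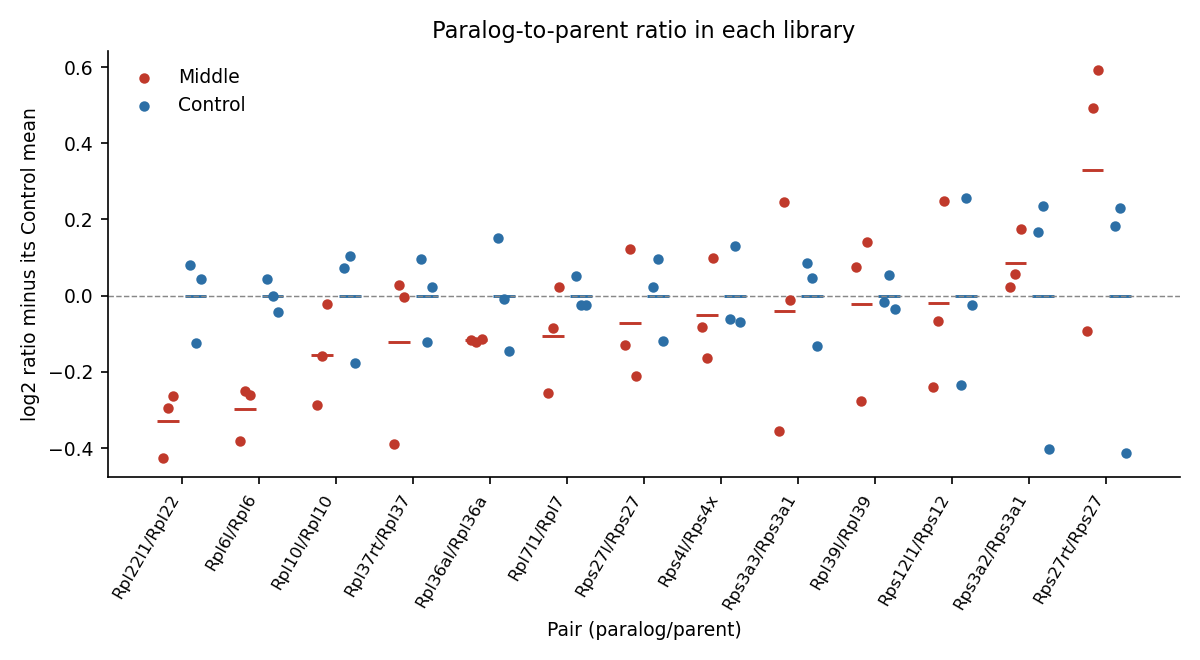
Log2 ratio of each paralog to its parent, minus the mean of the Control libraries, for 13 pairs in each library, with Middle in red left of Control in blue and the mean as a short line. Rpl22l1 to Rpl22 and Rpl6l to Rpl6 are the 2 pairs whose groups do not overlap, and Rps27rt to Rps27 has the highest Middle mean, at 0.33.

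Several copies are so like their parents that their values are uncertain. Rps12l1 and Rps27rt match Rps12 and Rps27 without a mismatch over 399 and 341 aligned bases, Rpl37rt matches Rpl37 at 99.7%, and Rps3a2 and Rps3a3 match Rps3a1 at 99.5% and 98.9%. All exon bases of Rps12l1 are also those of Gm44510. Rps3a2 was at 19.3 ± 1.29 RPKM in Middle and 15.4 ± 3.05 in Control, and Rps27rt at 5.69 ± 1.57 and 3.73 ± 0.846 (SD, n = 3 each), both with overlapping groups. Rpl37rt, Rps12l1, Rps3a3 and Rpl32l averaged 0.724 to 1.88 RPKM in Middle and 0.539 to 1.83 in Control.

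The 2 members that are no ribosome subunits differed from each other. Rps19bp1, a partner of Rps19 in ribosome assembly, was at 47.1, 37.3 and 31.99 RPKM in Middle and at 28.0, 30.6 and 31.0 in Control, without overlap and with an adjusted p of 0.204 (limma). Rps23rg1 was under the filter, at 0.246 ± 0.0712 RPKM in Middle and 0.338 ± 0.0870 in Control (SD, n = 3 each).

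By their medians, genes that build ribosomes lay between the common genes and all genes. Of 24 assembly factors, 22 had a log2 fold change above 0, with a median of 0.13, and 13 had no overlap with Middle higher, against 55.9% and 17.9% of all genes, but 0 passed the test. Nop2, which methylates ribosomal RNA, was at 32.7 ± 3.42 RPKM in Middle and 26.5 ± 0.984 in Control, and Heatr1, of the early small-subunit complex, at 7.72 ± 0.363 and 6.32 ± 0.364 (SD, n = 3 each). Of 9 genes of RNA polymerase I and its factors, 8 were tested, 7 were above 0 (median 0.14) and 4 had no overlap with Middle higher, against the same shares. Polr1c was at 28.9 ± 3.57 RPKM in Middle and 22.3 ± 2.37 in Control, and Ubtf, which opens ribosomal DNA, at 9.60 ± 0.436 and 7.92 ± 0.309 (SD, n = 3 each). The medians of these lists were 0.13 and 0.11 when Middle replicate 1 was left out.

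Other messages with a terminal pyrimidine tract had a median closer to that of all genes. Of 17 listed, 16 were tested, 14 were above 0 (median 0.064) and 6 had no overlap with Middle higher, against 55.9% and 17.9% of all genes. Without Middle replicate 1 the median was 0.032 and 10 of 16 were above 0, near the 57.7% of all genes. Eef1a1, the factor that brings transfer RNA to the ribosome, was at 493 ± 22.3 RPKM in Middle and 438 ± 1.44 in Control, without overlap, while Eef2 was at 361 ± 15.4 and 357 ± 16.7 (SD, n = 3 each). Among 9 genes that control the translation of these messages 6 were tested, and 3 were above 0, against 55.9% of all genes, with a median of 0.017. Larp1 was at 67.1 ± 2.83 RPKM in Middle and 67.7 ± 2.22 in Control, and Larp4 and Eif4ebp1 had every Middle library below every Control library, where 11.4% of all genes did. None of the genes of these lists passed the test.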

How the data were processed

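Total RNA of whole testis (2400 ng per library, Trizol) was made into messenger RNA libraries, per the labels. Trimming used fastp 0.23.0 and build GRCm39 was the reference, per the submitters' processing notes. The labels do not state the aligner, the counting program, the strandedness or the handling of reads that match several places. The authors deposited RPKM values for 38715 genes with coordinates and exon lists, per the file headers. Multiplied by gene length, every value came out as a whole number of steps (tolerance 0.001 reads), which gave the reads behind it. For a gene of 1 kb, 3 fragments, the limit that a count of 0 allows, were worth 0.103 to 0.155 RPKM, which covers counting error only. In each group all pairs of libraries differed beyond counting noise, and each library was 1 replicate. The chi-square over its degrees of freedom was 34.4 and 24.7 for Middle replicate 1 against replicates 2 and 3. It was 11.0 for Middle replicate 2 against 3, and 6.26 to 10.2 in Control.

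Values were transformed to log2(RPKM + 1). The 15040 genes whose mean reached 1 RPKM in Middle or in Control were tested for Middle minus Control with limma 3.58.1 under R 4.3.3 (eBayes with trend, two-sided). P-values were adjusted over all these genes by Benjamini and Hochberg, with 0.05 as the threshold. Fold changes on this scale understate the change of low genes. The code of the fit was run on simulated reads with known fold changes, without a trend on GC or a deviating library. That run does not bear on shifts of the size seen here. Paralog-to-parent log2 ratios were compared by exact permutation (scipy 1.17.1). GC content, transcript lengths and alignments used GENCODE transcripts matched by symbol, none of whose coordinates were used, and start windows came from RefSeq (GRCm38.p6).

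The members and lists were chosen with earlier results of these data known. Named genes were all like-paralogs with their parents, Fau and Rack1, and the 5 common genes highest in level and with the largest and the smallest log2 fold changes. Some genes that this rule takes are not reported here. Genes named by role and from the pathway lists were chosen after their values were seen. The alternatives were pseudocounts of 0.1 and 0.01, no filter, median-of-ratios scaling, limma-voom on recovered reads (genes with 10 or more in 3 libraries), a replicate block, each library left out and, added after seeing the data, removal of each library's trend on GC (loess, span 0.5).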

Additional observations from a re-analysis of the deposited data

How the results depend on the processing

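Under all 14 alternatives 0 members were called and the common genes' median stayed above 0. That median ranged from 0.15 (without Middle replicate 1) to 0.32 (without Middle replicate 2) with 1 library left out, and was 0.11 with the GC trend removed and Middle replicate 1 left out. The number of genes called, 8, was 10 by limma-voom, 0 without the filter, 1 with the GC trend removed and Middle replicate 1 left out, and 0 to 3 with 1 library left out. Replicate numbers did not pair the libraries (correlations of same-numbered deviations -0.153, -0.119 and 0.0054), and a replicate block gave 0 genes called. No cause of these changes was tested.

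Of the gene values under the alternatives, 21 over 10 genes turned below 0 and 1266 kept their direction and side of the threshold. Rpl30 was at -0.016 with median-of-ratios scaling, -0.080 with the GC trend removed, between -0.060 and 0.055 with 1 library left out, and -0.11 with both the trend and Middle replicate 1 removed. Removal of the GC trend gave -0.012 for Rpl38, -0.024 for Rps25, -0.0086 for Rpl37rt and -0.019 for Rpl6l. With Middle replicate 1 also left out, values were -0.043 for Rpl34, -0.0013 for Rpl36, -0.059 for Rpl38, -0.031 for Rpl41, -0.071 for Rps25, -0.032 for Rps29, -0.011 for Rps9 and -0.079 for Rpl6l. With 1 library left out, values lay between -0.039 and 0.071 for Rps25, -0.039 and 0.11 for Rpl6l, and -0.045 and 0.11 for Rpl37rt.

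Some ratio differences turned sign, and the turned values reached 0.18, larger in size than most differences of the main comparison. With 1 library left out, log2 differences ranged from -0.20 to 0.012 for Rpl37rt/Rpl37, -0.10 to 0.11 for Rpl39l/Rpl39, -0.15 to 0.11 for Rps12l1/Rps12, -0.12 to 0.016 for Rps4l/Rps4x, -0.12 to 0.20 for Rps3a2/Rps3a1 and -0.18 to 0.12 for Rps3a3/Rps3a1. Pseudocounts of 0.1 and 0.01 gave 0.15 and 0.18 for Rps12l1/Rps12, and 0.13 and 0.17 for Rps3a3/Rps3a1. With groups of 3, single low genes such as Rpl3l, Rpl32l and Rps12l1 rest on few reads.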

Other observations

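The rows left out by the naming rule, processed pseudogenes of ribosomal proteins, had no call. Of 212 rows 58 passed the filter, 42 of them with a log2 fold change above 0, against 55.9% of all genes (median 0.13, against 0.027). Every Middle library lay above every Control library for 12 of the 58, near the 17.9% of all genes, and below for 3, against 11.4% of all genes. None passed the test (smallest adjusted p = 0.177, limma). Summed over all 212 rows they came to 506, 441 and 477 RPKM in Middle replicates 1 to 3 and to 409, 423 and 444 in Control. Rpl14-ps1 was at 40.4, 30.7 and 34.0 RPKM in Middle and at 21.9, 23.5 and 24.2 in Control, a log2 fold change of 0.57. Rps6-ps4, the most abundant of them, was at 61.8 ± 3.29 RPKM in Middle and 55.5 ± 3.49 in Control (SD, n = 3 each). Rps23-ps1 was lower in each Middle library than in each Control library, at 34.5, 33.2 and 34.8 RPKM in Middle and at 36.2, 36.9 and 38.4 in Control. Reads of such rows cannot be told apart with certainty from those of the parents, since the labels do not state how reads that match several places were handled.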
